A study of Mus musculus with 12 samples.

Results

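The cytosolic ribosomal protein genes were followed here in the livers of mice that lacked Phgdh in hepatocytes. They were taken by name: a probe belonged to the group if its RefSeq accession led to a gene symbol of the Rpl, Rps or Rplp series, with S6 kinase genes and symbols of pseudogene type (ending in -ps) left out. This gave 169 probes for 83 genes, of which 80 could be tested among 16915 genes in all. Total liver RNA of 6 Floxed and 6 LKO mice was hybridized to 12 single-color arrays, with 1 male C57BL/6 mouse of 30 weeks per array and chow containing casein for both genotypes. Floxed mice were homozygous for the conditional allele (Phgdh flox/flox) and carried no Cre. LKO littermates were homozygous for the same allele and carried Cre under the albumin promoter, so that recombination took place in hepatocytes while the other cells of the liver kept an intact gene. The 12 arrays came from 3 slides of 4. Floxed 1 to 4 were on slide 1, LKO 3 to 6 on slide 3, and Floxed 5 and 6 shared slide 2 with LKO 1 and 2.

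A cytosolic ribosome is built from a small 40S and a large 60S subunit, each an RNA core covered by a fixed set of proteins, most of them present as a single copy per ribosome. Liver is rich in ribosomes because hepatocytes make most of the proteins of the plasma. Transcripts of ribosomal proteins share a 5′ terminal oligopyrimidine (TOP) motif, a run of C and T that begins with a C at the cap, through which growth and amino acid signals relayed by mTORC1 and the RNA-binding protein Larp1 set how far these mRNAs are translated. Phgdh carries out the first step of serine synthesis, and the comparison asks whether the mRNAs of the ribosome's proteins differ when that step is deleted in hepatocytes.

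The TOP motif is shown here because it is the sequence feature that these transcripts have in common. RefSeq promoter windows of build GRCm38.p6 were matched to 62 of the 83 genes on the array. Among these 62, 13 genes (21.0%) had an annotated first base that was a C followed by at least 4 more pyrimidines, against 3.01% of 27025 genes with such a window. Each line below gives 15 bases before and 15 bases from the annotated start on the coding strand, with the pyrimidine run in capitals, for 5 members named in the results that had one, and then for Rps3, which did not.
Rps6, chr4:86857353-86857382, minus strand: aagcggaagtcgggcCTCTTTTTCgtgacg
Rpl28, chr7:4792950-4792979, plus strand: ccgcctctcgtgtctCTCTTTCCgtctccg
Rps21, chr2:180257364-180257393, plus strand: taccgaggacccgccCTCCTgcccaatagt
Rps27, chr3:90213634-90213663, minus strand: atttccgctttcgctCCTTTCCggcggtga
Rplp2, chr7:141447636-141447665, plus strand: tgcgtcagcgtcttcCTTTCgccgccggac
Rps3, chr7:99483695-99483724, minus strand: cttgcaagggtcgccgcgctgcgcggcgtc
The annotated start can lie some bases away from the cap used in liver, so a window without the run says only that these letters are not at that position. The core CCGGAAG, which holds the GGAA bound by ETS factors, was found on either strand of 40.3% of the member windows, which run from 250 bases before to 50 bases after the start, against 9.93% of all. AAGATGG, the core bound by YY1, stood on either strand of 16.1% against 7.28%, and GCGCATGCG, an NRF1 core, on 4.84% against 1.95%. The run CTCTTTC, which can overlap the TOP motif, was found on the coding strand of 19.4% against 4.60%, and the TATA box letters TATAAA of 9.68% against 9.77%. A gene with several annotated starts was counted if any of its windows held the letters.

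The arrays were of similar brightness in both genotypes, with a 75th percentile of the processed intensity of 258 to 473 for Floxed and 239 to 427 for LKO arrays and no saturated spot. Phgdh itself had a log2 fold change of -0.48 (SE 0.18, adjusted p = 0.451 by limma with Benjamini-Hochberg adjustment) and was called at the unadjusted threshold given below. The Phgdh probe was dimmer than those of all ribosomal protein genes, with a Floxed median of 5.17 on the log2 scale. The arrays labeled LKO 1 and LKO 2, with log2 intensities of 5.07 and 5.30, lay inside the Floxed range, which began at 4.81, while the other 4 LKO mice lay below it. Both are the LKO arrays of slide 2, and results are therefore also given without them. The LKO mice that remain are then all on slide 3, which holds no Floxed mouse. Wherever results are given without LKO mice 1 and 2, genotype and slide cannot be told apart. Hepatocyte markers were well above background on all arrays for 10 of 10 genes, and of the pancreas acinar markers 6 of 13 were well above background on no array.

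No ribosomal protein mRNA passed the test between LKO and Floxed livers. Of the 80 genes tested, 0 passed the criterion of the study's array methods, an unadjusted limma p below 0.05, while 8.35% of all 16915 tested genes passed it. From the same values the methods' t-test picked 3 of them, against 7.31% of all tested genes, Rps21 upward and Rps13 and Rpl27 downward, none of them after Benjamini-Hochberg adjustment. In limma the smallest adjusted p was 0.743, for Rps21. The log2 fold changes lay between -0.14 and 0.13 with a median of -0.01, 28 of them above and 52 below 0, while the median of all tested genes was -0.0035. Non-overlapping values, with all mice of one genotype above all of the other, were seen for 0 of the 80 genes and for 0.296% of all tested genes. No gene of the whole array passed the adjusted threshold.

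The group's sizes of change were small beside those of the whole array. The median absolute log2 fold change was 0.03 for the ribosomal protein genes and 0.09 for all tested genes, and the median residual SD between mice of one genotype was 0.11 and 0.22. Probe brightness moved with this. When all tested genes were divided by brightness into 5 equal bins, 78 of the 80 genes fell into the brightest, where only 2.07% of 3383 genes were called and the median residual SD was 0.14. Read against that share, a count of 0 among 80 is not a result about ribosomal protein genes in particular. The 78 members in this bin had a median residual SD of 0.10. In the dimmest bin 19.6% of 3383 genes were called.

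**Figure D1:**
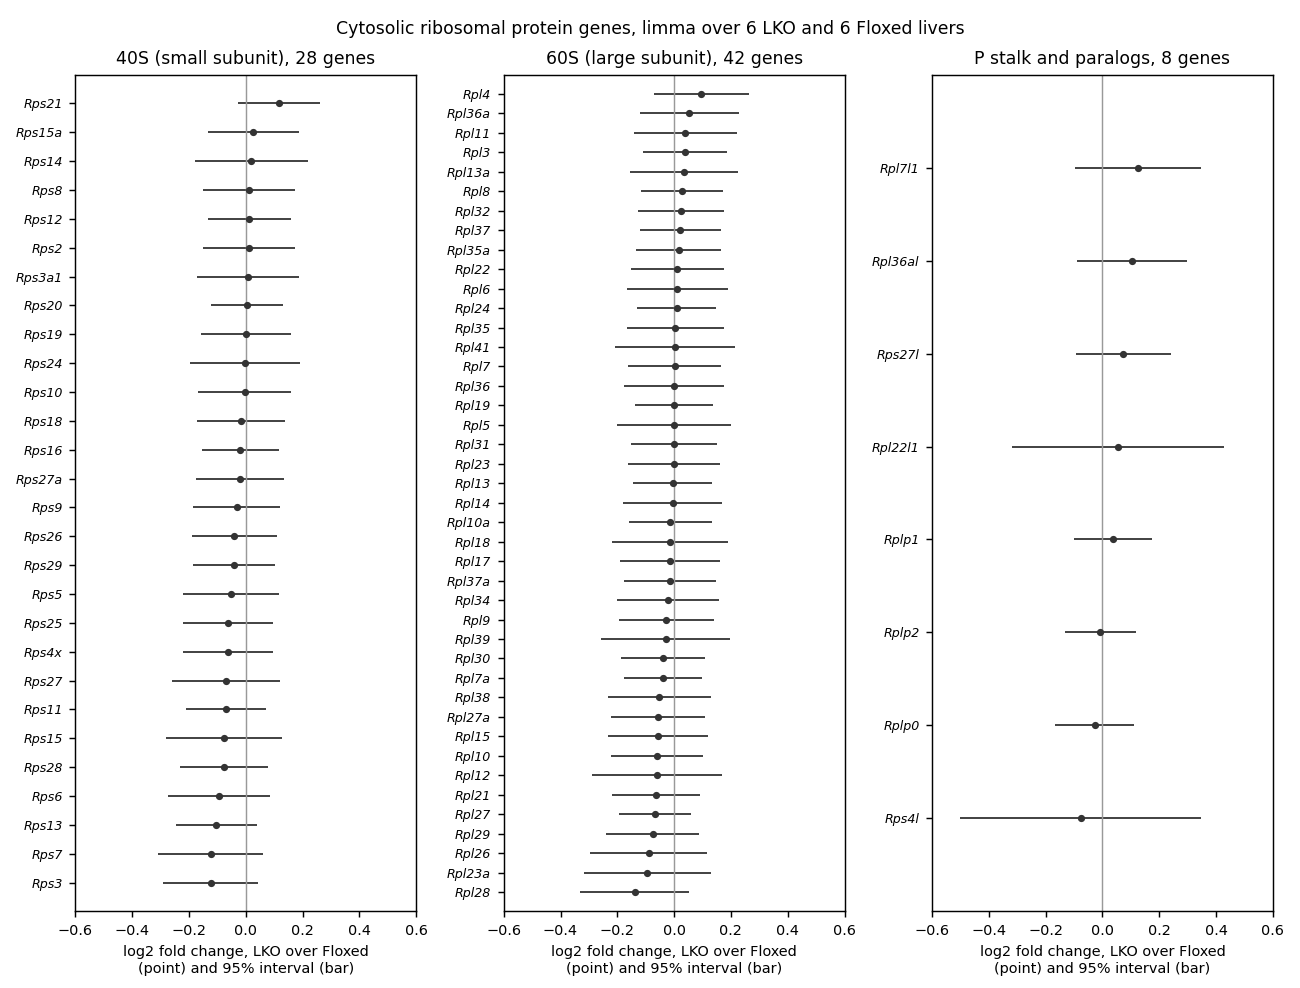
Log2 fold change of LKO over Floxed livers (points, x axis) with its 95% interval (bars) for 78 of the 80 tested ribosomal protein genes (y axis), by subunit. The points lie between -0.14 and 0.13 and every interval contains 0.

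The intervals say how large a change the 6 against 6 mice leave possible in the fit without slide, on quantile-normalized values. A slide effect is not covered by them. For some genes the difference within slide 2, which rests on 4 arrays, lay outside the interval. For Rps3 it was 0.07, against an upper end of 0.04. For 66 of the 80 genes (82.5%) the 95% interval lay inside a fold of 1.2 in either direction, against 24.8% of all tested genes. For 78 genes it lay inside a fold of 1.3 and for all 80 inside a fold of 1.5, which held for 51.8% and 78.2% of all tested genes. The brightest bin held 78 of the 80 genes, and its median residual SD was 0.14, against 0.22 for all tested genes. Shares of intervals were not taken within that bin, so they are not particular to ribosomal protein genes on these values. Only 2 genes, Rplp2 and Rps20, had an interval inside a fold of 1.1. The widest intervals were those of Rps4l, from -0.50 to 0.35 on the log2 scale, and of Rpl22l1, from -0.32 to 0.43.

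Among the 29 proteins of the 40S subunit, 8 genes had a higher and 21 a lower mean in LKO mice, and the median log2 fold change was -0.03. Rps3, which sits where the mRNA enters the ribosome, ranged from a lowest value of 14.43 over a median of 14.61 to a highest of 14.83 in Floxed and from 14.38 over 14.50 to 14.60 in LKO mice (log2 intensities here and below). Of the LKO values, 2 lay below the lowest Floxed value and 4 in the lower part of the Floxed range, and the difference was -0.12 (SE 0.08, adjusted p = 0.781 by limma). For Rps7, a protein needed for processing of the small subunit's RNA, the lowest, median and highest values were 14.02, 14.12 and 14.48 in Floxed and 13.95, 14.02 and 14.19 in LKO mice. One Floxed mouse, number 2, stood above all others for this gene, and the difference of -0.12 (SE 0.09) did not pass the test.

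Rps6, the target of the S6 kinases downstream of mTORC1, was close to constant in Floxed mice, from 14.96 over 15.03 to 15.05. In LKO mice it spread from 14.63 over 14.95 to 15.10, with both the highest and the lowest of the 12 values. The log2 fold change was -0.09 (SE 0.08, adjusted p = 0.903). Rps19, the gene most often mutated in Diamond-Blackfan anemia, had a mean of 13.65 in both genotypes, with a 95% interval of the log2 fold change from -0.16 to 0.16. The 13 genes of the list of Diamond-Blackfan anemia genes, of both subunits, had a median of -0.04, with 2 higher, 11 lower and 0 called.

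Rps21, one of the smallest proteins of the 40S subunit, was the member with the smallest p. Its values went from 13.65 over 13.72 to 13.91 in Floxed and from 13.77 over 13.86 to 13.91 in LKO mice. LKO mice 3 (13.9105) and 6 (13.9117) lay just above the highest Floxed value (13.9075), and the other LKO mice lay inside the Floxed range. The log2 fold change was 0.12 (SE 0.07). Without Floxed mouse 1, the highest of its group, the log2 fold change was 0.15 and limma called the gene, with an adjusted p of 0.597, in a fit where 7.65% of all genes were called. Rps27a, made as a fusion of ubiquitin with a 40S protein, differed by -0.02, and Rps13, named here because the methods' t-test called it, by -0.10 (SE 0.07).

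Of the 43 proteins of the 60S subunit, 15 had a higher and 28 a lower mean in the knockout, and the median log2 fold change was -0.0055. Rpl28 had the lowest log2 fold change of all 80 members. It ranged from 13.49 over 13.68 to 13.86 in Floxed and from 13.27 over 13.57 to 13.73 in LKO mice, so that the groups overlapped over most of their range, and the difference was -0.14 (SE 0.09, a fold of 0.909, adjusted p = 0.792).

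At the other end was Rpl4, which lines part of the tunnel through which the new protein leaves the ribosome. Floxed mice ranged from 14.23 over 14.34 to 14.50 and LKO mice from 14.34 over 14.45 to 14.59, and the log2 fold change was 0.10 (SE 0.08, adjusted p = 0.884). The 5 highest values came from both genotypes. Rpl5 and Rpl11, which carry 5S RNA into the ribosome and bind Mdm2 when they are free, had log2 fold changes of -0.0007 and 0.04, each with a standard error under 0.1. For Rpl12, at the base of the stalk, the residual SD of 0.18 was the largest of the 60S proteins outside the paralogs, with a log2 fold change of -0.06. Rpl13a, a protein often used as a reference transcript, differed by 0.03 at its brightest probe, while its other 2 probes gave -0.18 and -0.17, none of them called.

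The stalk proteins draw elongation factors to the ribosome. Their median residual SD of 0.07 was smaller than the 0.10 of the 40S and the 0.11 of the 60S proteins. Rplp0 ranged from 16.29 over 16.35 to 16.49 in Floxed and from 16.24 over 16.33 to 16.42 in LKO mice, Rplp2 from 16.07 over 16.13 to 16.17 and from 16.05 over 16.13 to 16.18. Both pairs of ranges nearly coincide. Rplp1 went from 15.48 to 15.70 and from 15.51 to 15.64. The log2 fold changes of the 3 genes were -0.03 for Rplp0, 0.04 for Rplp1 and -0.0080 for Rplp2.

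**Figure D2:**
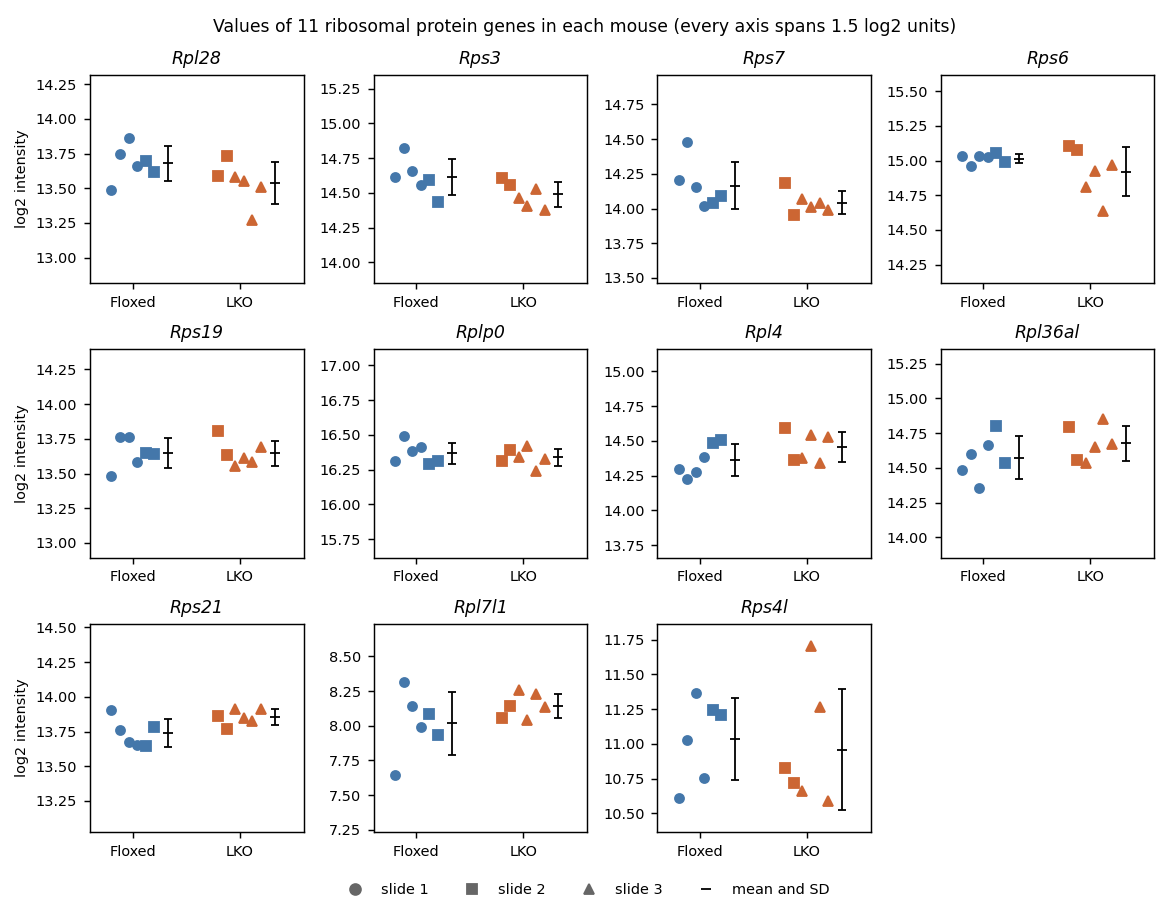
Log2 intensity (y axis, spanning 1.5 units in every panel) of 11 ribosomal protein genes in each of 6 Floxed and 6 LKO mice. The symbol gives the slide, and the bar the mean and SD of the genotype. In all 11 panels the genotypes overlap, from Rpl28 at a log2 fold change of -0.14 to Rpl7l1 at 0.13.

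Most vertebrate ribosomal proteins have 1 gene, but a few have a paralog that can take the place of the common form in some tissues. On the array were 8 such paralogs, and 5 could be tested, as the muscle form Rpl3l and the testis form Rpl10l were well above background on no array and Rpl39l on 2 arrays, 1 of each genotype. Of the 5, 4 had a higher mean in LKO mice and 0 were called, with a median of 0.07. Rpl7l1, read by a dimmer probe than the other members, ranged from 7.65 over 8.04 to 8.32 in Floxed and from 8.04 over 8.14 to 8.26 in LKO mice. All LKO values lay inside the Floxed range, and the log2 fold change of 0.13 (SE 0.10) was the highest of the group.

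Rpl36al differed by 0.10 (SE 0.09), Rps27l by 0.07 (SE 0.08) and Rpl22l1 by 0.06 (SE 0.17). Rps27l is a target of p53, and Rpl22l1 is known to be held down by its partner Rpl22. Rpl22l1 varied widely in both genotypes, from 12.75 to 13.72 in Floxed and from 12.85 to 13.69 in LKO mice. Rps4l, which RefSeq lists as a transcribed pseudogene, varied most, with a residual SD of 0.37, values from 10.61 over 11.12 to 11.36 in Floxed and from 10.59 over 10.77 to 11.70 in LKO mice, and a log2 fold change of -0.08. The partners of these paralogs were steadier. Rpl3, Rpl7, Rpl10, Rpl22, Rpl26, Rpl36a, Rpl39, Rps4x and Rps27 had log2 fold changes from -0.09 for Rpl26 to 0.05 for Rpl36a, 4 above and 5 below 0, and 0 of the 9 were called.

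Ribosomal proteins whose symbols the rule does not reach behaved likewise. Rack1, the scaffold on the head of the 40S subunit, differed by -0.02 (SE 0.06), Rpsa by 0.07 (SE 0.07), and Fau, which encodes a ubiquitin-like protein fused to a 40S protein, by 0.04 (SE 0.08). None of these 3 was called.

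Several members were read by more than 1 probe, which gives a view of the measurement itself. Of the 169 probes, 161 passed the filter on background on all arrays, and 1 of these was called, against 8.54% of 20403 probes in all. It was 1 of 7 probes of Rpl17, with a log2 fold change of 0.21, while the gene's other probes lay between -0.08 and 0.15 and its brightest probe was not called. Of 49 genes with several probes, 22 had probes on both sides of 0, and the median range between probes of a gene was 0.06. Rps24, whose transcripts differ in their last exons, had probes for 3 RefSeq transcripts, at 0.05, 0.11 and -0.0031. Ribosomal protein genes have many processed pseudogenes of near-identical sequence, and how far a probe also read those was not tested.

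To see how the members varied from mouse to mouse, the mean deviation on each array of the 80 genes from their own means was taken on the log2 scale after quantile normalization. It was 0.04, 0.10, 0.0013, -0.03, -0.05 and -0.0069 in Floxed mice 1 to 6 and 0.10, -0.02, -0.07, -0.04, -0.0089 and -0.02 in LKO mice 1 to 6. Floxed mouse 2 and LKO mouse 1 were highest, with 62 and 70 of the 80 genes above their own mean, and LKO mouse 3 was lowest, with 14. This order depended on the scaling. With 75th percentile scaling the mean deviation was 0.33 in Floxed mouse 2 but 0.05 in LKO mouse 1 and 0.05 in LKO mouse 3, with LKO mouse 5 at 0.18, and without scaling it was -0.13 in Floxed mouse 2 and 0.17 in LKO mouse 1. The genotype means were 0.0089 ± 0.05 in Floxed and -0.0089 ± 0.06 in LKO mice (SD, n = 6), a difference of -0.02 that is smaller than either SD. The 40S and 60S proteins followed the same mice.

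Markers of red blood cells moved with this pattern. Of the 7 genes in that list, 5 were well above background on all arrays. Their mean deviation was highest in Floxed mouse 2 (0.76) and LKO mouse 1 (0.46), and low in Floxed mouse 5 (-0.47), LKO mouse 2 (-0.46) and LKO mouse 3 (-0.42). Their summed normalized intensity ranged from 25590 to 55620 in Floxed and from 24350 to 49800 in LKO mice. Their part in the pattern of the ribosomal protein genes was not tested. In RNA of whole liver, fewer cells of a type and less RNA per cell cannot be told apart. Without Floxed mouse 2 and LKO mouse 1, an alternative chosen after seeing the data, 0 of the 80 genes were called, against 13% of all tested genes, and their median was -0.02.

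**Figure D3:**
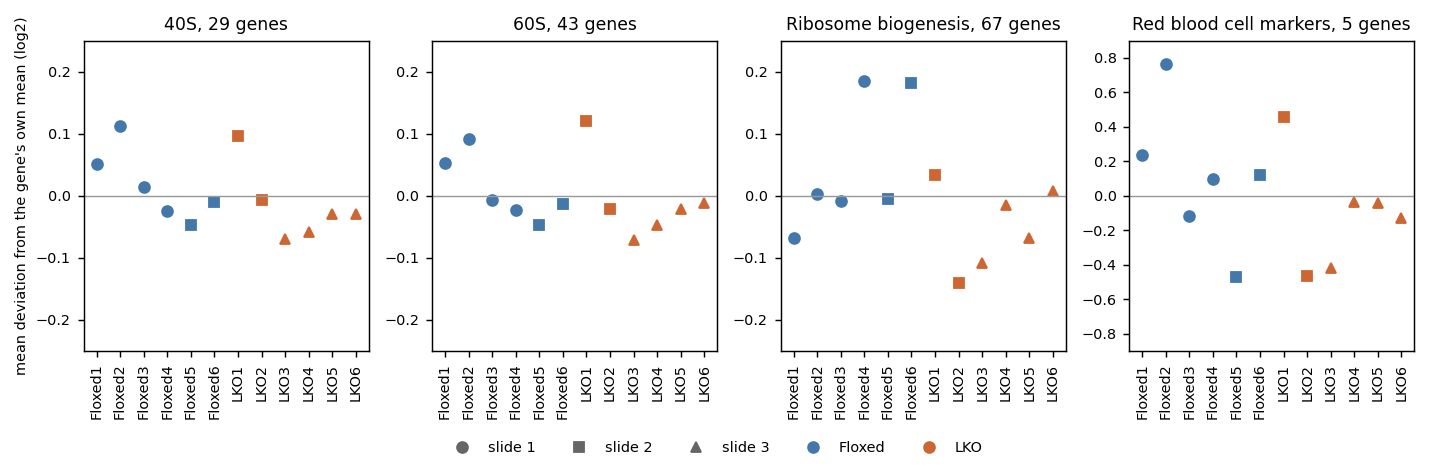
Mean deviation from each gene's own mean over the 12 arrays (y axis, log2) on every array (x axis) for 40S proteins, 60S proteins, ribosome biogenesis factors and red blood cell markers; color gives the genotype, the symbol the slide, and the last panel has a wider axis. After quantile normalization Floxed mouse 2 and LKO mouse 1 are high for both subunits and for the red cell markers, while biogenesis factors are highest in Floxed mice 4 and 6.

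The direction of the small difference between genotypes was not the same within slide 2 as over all mice. Within slide 2, the only slide with both genotypes, 71 of the 80 genes had a higher mean in LKO mice and the median was 0.07, against 52 of 80 lower over all mice. On this slide the mean deviation of the members was -0.05 and -0.0069 in Floxed mice 5 and 6. It was 0.10 in LKO mouse 1 and -0.02 in LKO mouse 2, which thus lay between the Floxed mice. With slide as a fixed block, which rests on these 4 arrays, 0 of the 80 genes were called, against 1.87% of all tested genes. In limma without LKO mice 1 and 2, an alternative also chosen after seeing the data, 60 of 80 genes were lower with a median of -0.04, and again 0 were called, against 12.8% of all tested genes. Among those mice no slide holds both genotypes, so slide and genotype cannot be told apart. Under 75th percentile scaling the median was -0.03 and without any scaling -0.05, while the mean deviation per array spread more widely, from -0.17 to 0.33 and from -0.39 to 0.25. The highest array was Floxed mouse 2 under the former and Floxed mouse 4 under the latter.

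**Figure D4:**
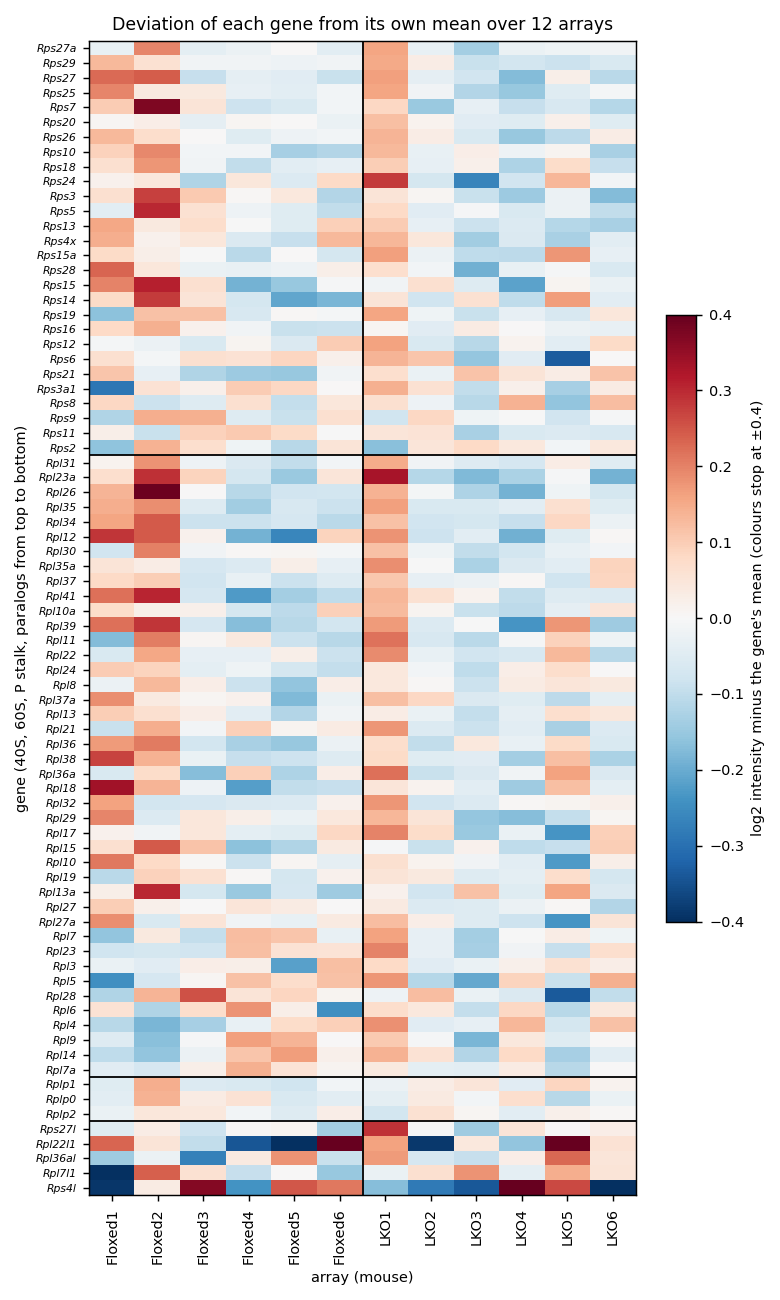
Deviation of 78 of the 80 ribosomal protein genes (rows) from its own mean on each of 12 arrays (columns), as log2 intensity, with colors ending at ±0.4. Lines separate 40S proteins, 60S proteins, stalk proteins and paralogs, and Floxed from LKO mice; rows within a block run from the highest to the lowest correlation with the other members. Red columns of Floxed mouse 2 and LKO mouse 1 run through most rows of both subunits.

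After subtraction of each genotype's mean, the average correlation between pairs of the 80 genes over the 12 mice was 0.24, against 0.0017 for pairs of all tested genes, 0.14 for proteins of the mitochondrial ribosome and 0.13 for ribosome biogenesis factors. Each of these values is a description, since all pairs share the same 12 arrays and their brightness. Closest to the mean of the other members were Rpl31 and Rpl23a (both 0.93). Rps2 (-0.26), Rps4l (-0.24) and Rpl7a (-0.23) ran against it. A first principal component took up 37.6% of the variance of the members within genotypes.

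The genes that supply the ribosome were then placed beside its proteins. Of 67 tested factors that assemble ribosomes in the nucleolus, 3 fell in LKO mice and 0 rose, 4.48% against 8.35% of all tested genes, with 46 lower and 21 higher means and a median log2 fold change of -0.06. Nol9, a kinase that acts on the ends of precursor ribosomal RNA, ranged from 6.71 over 7.15 to 7.62 in Floxed and from 5.95 over 6.50 to 6.70 in LKO mice. The genotypes did not overlap, and the log2 fold change was -0.72 (SE 0.16, adjusted p = 0.257). Utp15, part of the complex that processes the small subunit's RNA, went from 4.01 over 4.43 to 4.53 in Floxed and from 3.34 over 3.77 to 3.98 in LKO mice, again without overlap, with a difference of -0.56 (SE 0.13, adjusted p = 0.257). The probes of both Nol9 and Utp15 were dimmer than that of every ribosomal protein gene. Calls were most common among dim probes, at 19.6% in the dimmest bin against 2.07% in the brightest.

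Rrs1, which helps to bring Rpl5 and Rpl11 with 5S RNA into the large subunit, fell by 0.41 on the log2 scale (SE 0.16, adjusted p = 0.475), and its genotypes overlapped. Within slide 2 all 3 differences had the same sign, -0.53 for Nol9, -0.67 for Utp15 and -0.53 for Rrs1. With slide as a fixed block limma called Utp15 of these 3. In that fit 2 of the 67 factors were called (2.99%), against 1.87% of all tested genes. The number of called factors changed with the mice used. It was 6 (8.96%) without LKO mice 1 and 2, where 12.8% of all tested genes were called, and 10 (14.9%) without Floxed mouse 2 and LKO mouse 1, where 13% were. All of these factors were lower in LKO mice, and Rrs1 was not among the 6. RNA polymerase I and its factors, which transcribe ribosomal RNA, had 0 of 14 genes called, 11 lower and 3 higher, with a median of -0.09.

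Of 25 genes of mTORC1 and TOP mRNA control, 2 were called, a share of 8% that is close to the 8.35% of all tested genes. Ddit4, an inhibitor of mTORC1 induced by stress, rose by 0.53 (SE 0.21, adjusted p = 0.501), from 9.37 over 9.91 to 10.14 in Floxed to 9.95 over 10.29 to 11.23 in LKO mice. Rps6ka3, a kinase of the RSK family that phosphorylates ribosomal protein S6, fell by 0.32 on the log2 scale (SE 0.12, adjusted p = 0.457). Its probe was about as dim as that of Utp15, with a Floxed median of 4.47. Neither Ddit4 nor Rps6ka3 was called with slide as a fixed block. Other TOP mRNAs, chiefly of translation factors, had 0 of 22 called and a median of 0.0003, and transcription factors of ribosomal protein genes 0 of 12. Without LKO mice 1 and 2, 1 gene of each of these 2 lists was called, 4.55% and 8.33% against 12.8% of all tested genes. Without Floxed mouse 2 and LKO mouse 1 it was 1 of 22 (4.55%) and 2 of 12 (16.7%), against 13%. There, 3 of the 25 genes of mTORC1 and TOP mRNA control were called (12%). The mitochondrial ribosome, a separate machine, had 0 of 77 genes called, 48 higher and 29 lower, with a median of 0.02.

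The p53 pathway is known to respond when free Rpl5 and Rpl11 bind Mdm2. Of its 13 tested genes, 2 rose and 0 fell, 15.4% against 8.35% of all tested genes. Bbc3, which encodes the death factor PUMA, ranged from 8.61 over 9.40 to 10.23 in Floxed and from 9.95 over 10.32 to 10.91 in LKO mice, with a log2 fold change of 0.95 (SE 0.25, adjusted p = 0.307). The upper part of the Floxed range overlapped the lower part of the LKO range. Phlda3, a p53 target that holds back Akt, rose by 0.33 (SE 0.14, adjusted p = 0.565). With slide as a fixed block 0 of the 13 were called, against 1.87% of all tested genes. The log2 fold changes in that fit were 0.53 for Bbc3 and 0.54 for Phlda3. Without LKO mice 1 and 2, 3 of the 13 were called (23.1%), against 12.8% of all tested genes. These were Bbc3 upward and Mdm4 and Pmaip1 downward, while Phlda3 was not called (0.31). Without Floxed mouse 2 and LKO mouse 1, 4 of the 13 were called (30.8%), against 13%. Mdm4 and Pmaip1 were again called downward, and Bbc3 and Phlda3 upward. Mdm4 and Pmaip1, with log2 fold changes of -0.28 and -0.45 over all mice, are named here after their values were seen. Of the 14 tested genes of the amino acid response 1 was called, 7.14% against 8.35% of all tested genes. This was Asns, which makes asparagine and fell by 1.18 on the log2 scale (SE 0.54, adjusted p = 0.598 by limma). It was called with slide as a fixed block (-2.45), 1 of 14 genes (7.14%) against 1.87% of all tested genes. It was not called without LKO mice 1 and 2 (-0.65) or without Floxed mouse 2 and LKO mouse 1 (-0.94). Without LKO mice 1 and 2 another gene of this list was called, upward (7.14%, against 12.8% of all tested genes). Of 9 genes of serine metabolism Phgdh alone was called, 11.1% against 8.35% of all tested genes.

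**Figure D5:**
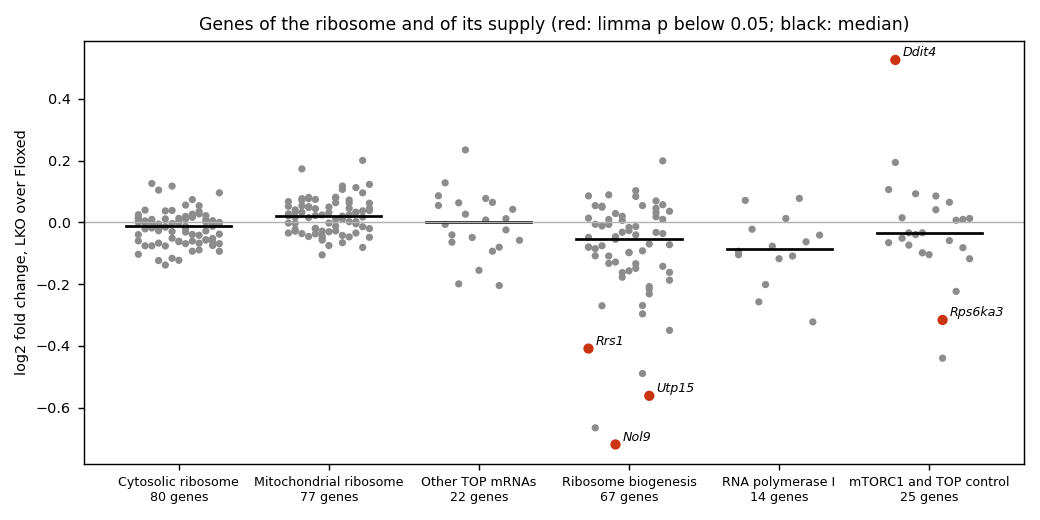
Log2 fold change of LKO over Floxed (y axis) for each tested gene of 6 lists (x axis), with genes at a limma p below 0.05 in red and named, and the median of each list as a black line. Cytosolic ribosomal proteins lie between -0.14 and 0.13, and the called biogenesis factors lie below them.

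Of the cell type markers that could be tested, 0 were called for hepatocytes (10 of 10 tested), macrophages (7 of 8), lymphocytes (7 of 10), stellate cells (8 of 8), cholangiocytes (2 of 5), red blood cells (5 of 7) and adipocytes (1 of 5). Without LKO mice 1 and 2 the lymphocyte marker Ms4a1 was called downward, 1 of 7 (14.3%) against 12.8% of all tested genes. It was also called downward without Floxed mouse 2 and LKO mouse 1, again 14.3%, against 13%. The stellate cell marker Dcn was called downward without LKO mice 1 and 2, 1 of 8 (12.5%) against 12.8%. These shares are near those of all tested genes. Of 7 endothelial markers Pecam1 alone was called, 14.3% against 8.35% of all tested genes. It rose by 0.70 (SE 0.18, adjusted p = 0.273), with a difference of 0.04 within slide 2. Of 5 tested pancreas acinar markers Cel, a lipase activated by bile salts, was called alone, 20% against 8.35%. It rose by 0.54 (SE 0.13, adjusted p = 0.273), with a difference of 0.27 within slide 2. Both probes were dimmer than those of all ribosomal protein genes, with Floxed medians of 5.64 and 5.35. Neither was called with slide as a fixed block. Without Floxed mouse 2 and LKO mouse 1, 2 of the 5 pancreas acinar markers were called upward, 40% against 13% of all tested genes.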

How the data were processed

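Liver RNA of 6 Floxed and 6 LKO mice was measured on single-color arrays. The authors deposited the scanner output, in which each spot has a processed intensity with background removed and no scaling between arrays, and a table of quantile-normalized intensity, which was used as an alternative. The submitters' notes and the headers of the files name different versions of the scanner software, and the labels and the methods name different RNA kits. Which was used is not known. Of 43020 spots of 39429 probes per array, outlier spots (0.297%) were set as missing after log2 transformation and quantile normalization over 12 arrays. The filter required the scanner software's mark for a signal well above background on each of the 12 arrays (20404 probes), in place of the detection p-value of the methods, and for repeated spots in at least 0.5 of them. The brightest probe stood for a gene. Accessions were matched to the RefSeq table of GRCm38.p6 for 94.3% of 28389 probes. Genotypes were compared with limma 3.58.1 in R 4.3.3 (lmFit and eBayes, no covariates) over all tested genes, with p-values adjusted by Benjamini-Hochberg, and 1 gene could not be fitted. The code was tested on simulated data. Intervals are 95% intervals from limma for the mean difference between genotypes. Their standard error combines the gene's own spread between mice with a spread that eBayes estimates over all tested genes. For genes with a small spread of their own this widens the interval. Rplp2, for example, had a residual SD of 0.04 and a standard error of 0.06. The number of arrays also limits the precision of the intervals.

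The members and the gene lists were chosen with earlier results of these data known. Named are the 4 members with the highest and the 4 with the lowest log2 fold change, the 3 with the largest residual SD, members named by role, the paralogs with their partners, ribosomal proteins outside the naming rule, and called genes of the other lists. Rps13, Rpl27, Rps20, Rpl17, Rps24, Rpl31, Rpl23a, Rps2, Rpl7a, Ms4a1 and Dcn were named after their values were seen. A few genes that this rule names are counted but not reported singly here, and 2 members are left out of the plots. Alternatives covered the scaling, background correction, source of values, filters, outlier spots, probe choice, threshold, test, slide, replicate number and each array left out, and 2 pairs of arrays left out were added after seeing the data.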

Additional observations from a re-analysis of the deposited data

Results flagged for a closer look

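In a comparison of the most extreme mouse of each genotype with the other 5, by Dixon's criterion, 6 of 78 groups of values had a mouse apart from the rest, where chance gives about 1 in 20 (3.9 groups). Floxed mouse 2 was the highest of its group for Rplp1, at a log2 intensity of 15.70 against 15.48 to 15.54 in the other Floxed mice, for Rps27a, at 16.28 against 16.05 to 16.09, and for Rpsa, at 16.65 against 16.38 to 16.48. LKO mouse 5 was the lowest of its group for Rpl10, at 16.72 against 16.91 to 17.01. LKO mouse 1 stood above the other LKO mice in the mean deviation of the ribosomal protein genes, 0.10 against -0.07 to -0.0089, and in that of the 60S proteins, 0.12 against -0.07 to -0.01.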

How the results depend on the processing

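The count of 0 called ribosomal protein genes held under all alternatives except 5, and no alternative called more than 3. Normexp background correction called 1 (Rps13, log2 fold change -0.17), where 1417 of all 16915 tested genes were called. Single probes gave 1 (Rpl17), against 8.54% of all probes, and the methods' t-test 3, against 7.31% of all tested genes. Slide 2 alone gave 1 (Rps4l, -0.46), where 512 of 16915 genes were called. With each mouse left out in turn the count was 0 to 1. The 1 was Rps21 without Floxed mouse 1, where 7.65% of all tested genes were called. The members' median log2 fold change became 0.07 (0.0726) with slide as a fixed block and in slide 2 alone and otherwise lay between -0.05 and 0.0019, the latter without Floxed mouse 2. The cause was not tested. All genes called, 1413 at first, were 885 without scaling between arrays, 2791 without the filter on dim probes, 0 by the adjusted p, 88 when a change of 1 or more on the log2 scale was required, 317 with slide as a fixed block, 512 in slide 2 alone, 2172 without LKO mice 1 and 2, 2205 without Floxed mouse 2 and LKO mouse 1, and 1103 to 1837 with each mouse left out. Phgdh was not called with 75th percentile scaling (-0.34), without scaling (-0.36), by the adjusted p or where a log2 change of 1 or more was required (both -0.48), or with slide as a fixed block and in slide 2 alone (both -0.055). With normexp background correction Phgdh was called, at a smaller log2 fold change of -0.19. Of 986 repeat values of the named ribosomal protein genes, 887 kept their direction and call, 96 changed sign without a call on either side, 3 gained a call and 0 reversed. A replicate block on the mouse numbers of the titles left 0 members called and the median at -0.01 and called 1428 genes in all. The deviations of same-numbered mice correlated from -0.24 to 0.32, above 0.1 in 3 of 6 pairs, and the labels do not say that a number marks a shared litter, so the pairing was not settled and the block is given here only.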
